A study of Mus musculus with 4 samples.

Results

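Chemokine receptors are G protein-coupled receptors that steer leukocytes along gradients of small secreted proteins, the chemokines. Follicular helper T (Tfh) cells are CD4 T cells that give help to germinal centre B cells. In them Cxcr5 draws cells towards Cxcl13 in the B cell follicle while loss of Ccr7 lets them leave the T cell zone, where its ligands Ccl19 and Ccl21 are made. Cxcr4 guides cells to Cxcl12, Cxcr3 and Cxcr6 are carried by effector T cells at inflamed sites, and Ccr2, Ccr4, Ccr6 and Ccr8 mark other effector, memory and regulatory T cells. The 9 genes described here were chosen by symbol (Cxcr3, Cxcr4, Cxcr5, Cxcr6, Ccr2, Ccr4, Ccr6, Ccr7 and Ccr8) among 23997 genes in the deposited table, and all 9 were found.

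RNA was sequenced from Tfh cells of lymph nodes and spleens of 13-week-old C57BL/6 mice. One group of 2 libraries came from wild-type (WT) mice and the other, also of 2, from Apoe-/- mice, which lack apolipoprotein E, a ligand for lipoprotein uptake, and are prone to atherosclerosis. The labels do not give the diet, the sort used to obtain Tfh cells, or whether a library is 1 animal or a pool. The p-values here therefore cover no more than the spread among 4 libraries, and that spread may be technical. The comparison addresses how the transcripts of Tfh cells differ in mice prone to atherosclerosis.

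Values are the authors' FPKM, in which fragments are divided by transcript length and by the mapped total of the library. Read depth is unknown, since the table gives no counts. FPKM totals ranged from 522371 to 551290, and 11084 to 11251 genes per library reached 1 FPKM. Mean FPKM of Apoe was 136 ± 12.1 (SD, n = 2) for WT and 5.15 ± 0.0865 (SD, n = 2) for Apoe-/- mice, so the targeted gene was low in both libraries labelled Apoe-/-. T cell genes were abundant in all libraries, with Cd3e at 281 to 315 FPKM and Cd4 at 365 to 408 FPKM. Of 8 T cell and Tfh markers, 0 passed an adjusted p under 0.05 by limma. In both Apoe-/- libraries 2 lay above WT and 1 below, and 5 overlapped, where 27.5% of all tested genes lay above and 22.9% below. The 1 below was Pdcd1, at 283 and 260 FPKM in WT and at 203 and 179 FPKM in Apoe-/- libraries (limma adjusted p = 0.0887; named after its values were seen). The 8 B cell markers examined summed to 321 and 313 FPKM in WT and to 199 and 188 FPKM in Apoe-/- libraries. The 8 neutrophil markers summed to 9.20 and 7.41 FPKM in WT and to 49.999 and 66.8 FPKM in Apoe-/- libraries. Most of the Apoe-/- sum came from S100a8 (mean 25.1 FPKM) and S100a9 (24.8 FPKM). Of these 8, 4 were tested and all 4 called higher, where 0.948% of all tested genes were. Elane was listed at 0 in all 4 libraries, Mpo was at 0.0209 FPKM or less and Ngp at 0.0452 FPKM or less. The 4 plasma cell markers summed to 27.2 and 31.4 FPKM in WT and to 39.9 and 41.8 FPKM in Apoe-/- libraries, and of them Jchain, the joining chain of secreted antibodies, rose from 10.2 to 27.2 FPKM (limma adjusted p = 0.0246; named after its values were seen). The others did not rise with it: mean Mzb1 went from 18.3 to 13.0 FPKM and Sdc1 from 0.766 to 0.569 FPKM, both lower in both Apoe-/- libraries, and Tnfrsf17 libraries overlapped. The 4 erythroid markers summed to 14.8 and 12.4 FPKM in WT, 29.4 FPKM in Apoe-/- replicate 1 and 3.25 FPKM in Apoe-/- replicate 2, and the 5 stromal markers to under 1 FPKM in every library.

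In Apoe-/- Tfh cells the transcript of Cxcr3 rose 1.72-fold and that of Ccr7 fell to a level 1.83-fold below WT. Cxcr4, Ccr4 and Ccr8 had lower values and Cxcr5 higher values in both Apoe-/- libraries, but these differences did not pass the test over all genes. By FPKM, Cxcr4 was the most abundant of the 9 transcripts in WT cells, whereas Cxcr5 was in Apoe-/- cells. Both calls, of Cxcr3 and of Ccr7, lay close to the threshold, and several other ways of treating the data ended them. Because these are bulk samples, fewer cells of a type and less RNA per cell cannot be told apart.

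**Figure D1:**
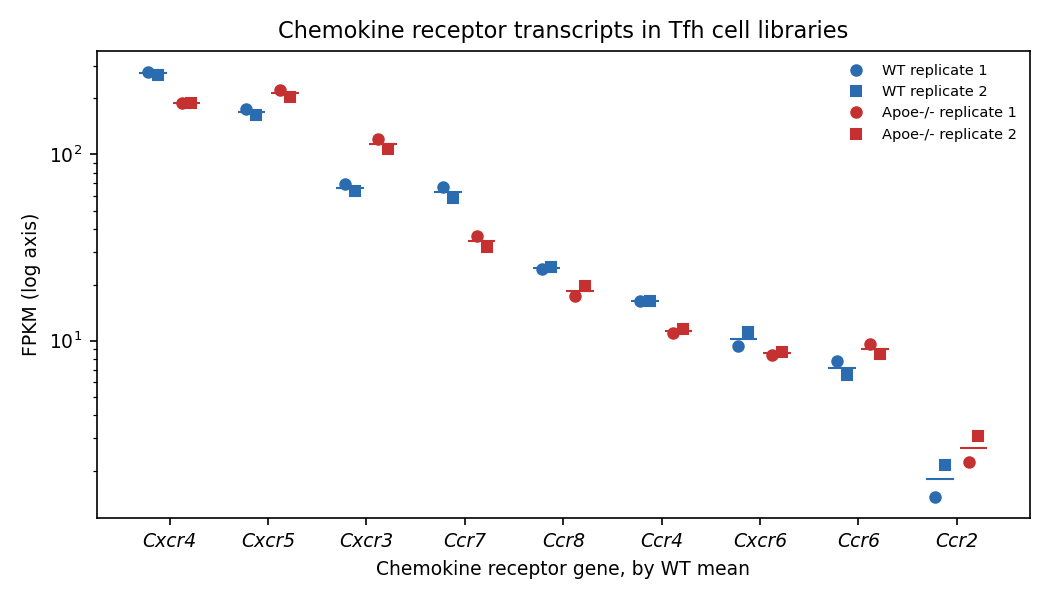
FPKM on a log axis of the 9 chemokine receptor genes in each library, ordered by WT mean; blue is WT and red Apoe-/-, circles are replicate 1, squares replicate 2 and short lines the group means. Cxcr4 is highest in WT (272 FPKM) and Cxcr5 in Apoe-/- libraries (213 FPKM), and for none of the 9 genes do the libraries of both groups overlap.

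The FPKM scale is per length, which lets levels of different genes be set side by side. The annotation behind those lengths is not given, so the order between genes depends on lengths that could not be checked. By mean FPKM, the WT order ran Cxcr4 (272), Cxcr5 (169), Cxcr3 (66.3), Ccr7 (62.7), Ccr8 (24.6), Ccr4 (16.4), Cxcr6 (10.3), Ccr6 (7.17) and Ccr2 (1.803). The neighbours Cxcr3 and Ccr7 overlapped in their WT libraries and did not differ beyond their spread, while all other neighbours in WT were separate. In Apoe-/- cells Cxcr5 (213 FPKM) stood before Cxcr4 (189 FPKM), Cxcr3 (114 FPKM) and Ccr7 (34.3 FPKM), each separate from the next. Only Ccr6 (9.02 FPKM) and Cxcr6 (8.56 FPKM) overlapped there among neighbours. Cxcr4 ranked at 297 and Cxcr5 at 354 by mean FPKM among all genes in the table, whereas Ccr2 ranked at 10163.

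The group ranges of all 9 receptors were separate, with 4 higher and 5 lower in Apoe-/- libraries, where 50.4% of all tested genes were separate. By direction, 27.5% of the 11187 tested genes lay above and 22.9% below WT in both Apoe-/- libraries. At an adjusted p under 0.05 (limma, Benjamini-Hochberg over all tested genes), 1 receptor was higher and 1 lower, where 0.948% of all tested genes were called higher and 0.885% lower. The tested genes are those with a mean of 1 FPKM or more, which all 9 receptors had. The median of the 9 differences was -0.23 on the log2(FPKM + 1) scale, against 0.00 over all tested genes. The median absolute difference of the receptors was 0.39, against 0.17 over all tested genes. The receptors were chosen with results of these data known, so these counts and medians are a description.

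**Figure D2:**
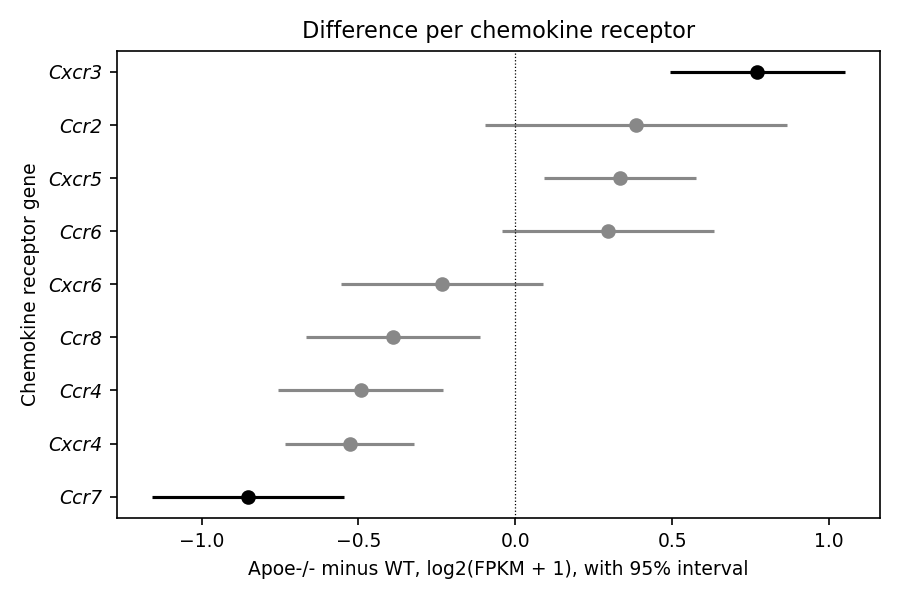
Apoe-/- minus WT, in log2(FPKM + 1) units, for each receptor, with limma's 95% interval; black marks an adjusted p under 0.05 and grey the rest. Cxcr3 (0.77) and Ccr7 (-0.85) lie at either end, and the intervals of Cxcr6, Ccr2 and Ccr6 include 0.

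Among the receptors that place Tfh cells in the follicle, Cxcr5 was measured at 176 and 162 FPKM in WT replicates 1 and 2 and at 223 and 204 FPKM in Apoe-/- replicates 1 and 2. Both Apoe-/- libraries were above both WT libraries. The log2 difference was 0.33 ± 0.10 (SE; 95% interval 0.09 to 0.58), with limma's adjusted p = 0.153, so Cxcr5 did not pass the test. The gene lies on chromosome 9 at 44511787 to 44526444 (GRCm38). In the GENCODE M21 annotation its exons share 110 bases, 3.30% of their length, with Bcl9l on the opposite strand. Bcl9l had mean FPKM of 16.3 (WT) and 18.4 (Apoe-/-), and its libraries overlapped, and the strand setting of the counting is not given in the sources used here. Bcl6, the repressor that defines the Tfh lineage, was at 95.3 and 112 FPKM (adjusted p = 0.250 by limma), and Ascl2, a factor known to induce Cxcr5, at 21.8 and 19.3 FPKM (adjusted p = 0.585). These last 2 genes were named for their known roles after their values were seen.

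Ccr7, the receptor that holds T cells in the T cell zone, was at 66.7 and 58.8 FPKM in WT replicates 1 and 2 and at 36.7 and 31.9 FPKM in Apoe-/- replicates 1 and 2. Each Apoe-/- library was below both WT libraries by more than the spread within either group. The mean fell from 62.7 ± 5.59 to 34.3 ± 3.39 FPKM (SD, n = 2 each), a log2 difference of -0.85 ± 0.12 (SE; 95% interval -1.16 to -0.54; limma adjusted p = 0.0442). Its absolute difference exceeded that of 97.6% of tested genes. The call ended without WT replicate 1 (adjusted p = 0.0815) or WT replicate 2 (0.0585) and in 5 settings with every library present (0.0512 to 0.0865). The lowest and highest Ccr7 values over all 13 settings were 0.00108 and 0.0865. Ccr7 is also carried by B cells and mature dendritic cells. In the same libraries all 8 tested B cell markers had lower values in both Apoe-/- libraries, where 22.9% of all tested genes did. Of the 8, 3 were called lower, where 0.885% of all tested genes were, among them Cd22 (46.8 ± 0.407 to 26.9 ± 1.29 FPKM). None of the 8 was listed at 0. All 5 tested dendritic cell markers of 7 had higher values in both Apoe-/- libraries, where 27.5% of all tested genes did. Of these 5, 1 (Itgax) was called higher and 4 were not, where 0.948% of all tested genes were called higher. The 7 summed to 10.03 and 9.28 FPKM in WT and to 19.3 and 21.1 FPKM in Apoe-/- libraries. The part of these cells in the Ccr7 value was not tested. Ccr7 lies on chromosome 11 at 99144199 to 99155077.

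The ratio of Cxcr5 to Ccr7 within a library sets the follicle-directed receptor against that of the T cell zone. WT replicates had ratios of 2.64 and 2.76, and Apoe-/- replicates had 6.07 and 6.39. The mean log2 ratio thus differed by 1.21, far more than the spread within either group. The ratios are given as a description, with no test. All 8 B cell markers had lower values in both Apoe-/- libraries, where 22.9% of all tested genes did. The part of B cells in the Cxcr5 and Ccr7 values of these ratios was not tested. Cxcr5 over Cxcr4 was 0.634 and 0.606 in WT and 1.18 and 1.08 in Apoe-/- libraries, which crosses equality on the FPKM scale. Cxcr5 over Cxcr3 moved the other way, from 2.54 and 2.56 to 1.83 and 1.92. Ccr7 over Cxcr4 was 0.240 and 0.220 in WT and 0.195 and 0.169 in Apoe-/- libraries.

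Cxcr4, the Cxcl12 receptor that moves cells into the dark zone of germinal centres and holds cells in bone marrow, was at 277 and 267 FPKM in WT replicates 1 and 2 and at 188 and 189 FPKM in Apoe-/- replicates 1 and 2. Its Apoe-/- libraries were below both WT libraries, and replicates of a group lay close together. Mean FPKM was 272 ± 7.10 in WT and 189 ± 0.106 in Apoe-/- libraries (SD, n = 2 each). The log2 difference of -0.53 ± 0.08 (SE; 95% interval -0.73 to -0.32) had a limma adjusted p of 0.0502, just past the threshold, and Cxcr4 passed with a pseudocount of 0.5 (0.0495) and with libraries rescaled to one FPKM total (0.0418). B cells also carry Cxcr4. Their 8 markers had lower values in both Apoe-/- libraries, where 22.9% of all tested genes did, and 3 were called lower, where 0.885% were. The part of B cells in the Cxcr4 value was not tested. Cxcr4 lies on chromosome 1 at 128588199 to 128592299.

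Cxcr3, the receptor for the interferon-induced chemokines Cxcl9, Cxcl10 and Cxcl11 and a mark of Th1 cells, was at 69.2 and 63.4 FPKM in WT replicates 1 and 2 and at 122 and 106 FPKM in Apoe-/- replicates 1 and 2. The lowest Apoe-/- library was well above the highest WT library. The mean rose from 66.3 ± 4.12 to 114 ± 10.8 FPKM (SD, n = 2 each), with a log2 difference of 0.77 ± 0.11 (SE; 95% interval 0.49 to 1.05; limma adjusted p = 0.0442). Its absolute difference exceeded that of 96.9% of tested genes. The call ended without WT replicate 2 (adjusted p = 0.135) and in 5 settings with every library present (0.0541 to 0.0858). The lowest and highest Cxcr3 values over all 13 settings were 0.00111 and 0.135. Tbx21, whose product T-bet is known to induce Cxcr3, was at 12.4 and 13.0 FPKM (limma adjusted p = 0.811; named after its values were seen), and its log2 difference of 0.06 became -0.01 without WT replicate 2 and -0.02 without Apoe-/- replicate 1. CD8 T and NK cells also carry Cxcr3. Of their 8 markers 6 were tested and none was called. Of the 6, 5 had higher values in both Apoe-/- libraries, where 27.5% of all tested genes did, and 1 (Gzma) overlapped. The 8 summed to 16.9 and 18.2 FPKM in WT and to 23.7 and 28.6 FPKM in Apoe-/- libraries. The defining markers Cd8a (0.595 and 1.07 FPKM) and Ncr1 (0.106 and 0.288 FPKM) were low but not at 0, while Cd8b1 (5.65 and 8.24 FPKM) and Klrb1c (4.52 and 7.31 FPKM) were higher, and the part of these cells in the Cxcr3 value was not tested. Cxcr3 lies on chromosome X at 101731535 to 101734147.

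**Figure D3:**
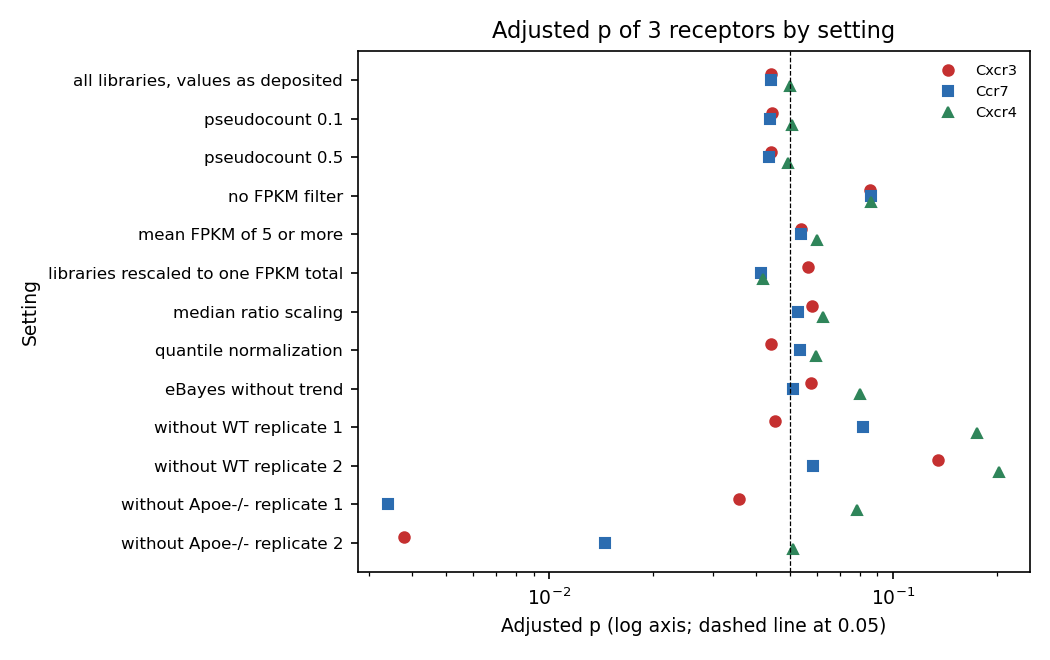
Adjusted p on a log axis of Cxcr3 (circles), Ccr7 (squares) and Cxcr4 (triangles) with all libraries and values as deposited and under 12 other settings; the dashed line is the threshold of 0.05. The highest points are those of Cxcr4 without WT replicate 2 (0.204) and without WT replicate 1 (0.175).

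The upstream DNA of 3 receptors is shown because they stand for one that rose and a pair with lower values in Apoe-/- cells. Each line gives the 250 bases before a RefSeq transcription start in GRCm38.p6, 5′ to 3′ on the gene's own strand, which was the minus strand in each case. Capitals mark matches on either strand to textbook motifs: the E-box (CANNTG), the AP-1 site (TGAGTCA), the GC box (GGGCGG), the TATA box (TATAAA), the palindromic NRF-1 site, the T-box site (GGTGTGA) and the NBRE (AAAGGTCA), which NR4A receptors bind.
Cxcr3, chrX:101734148-101734397: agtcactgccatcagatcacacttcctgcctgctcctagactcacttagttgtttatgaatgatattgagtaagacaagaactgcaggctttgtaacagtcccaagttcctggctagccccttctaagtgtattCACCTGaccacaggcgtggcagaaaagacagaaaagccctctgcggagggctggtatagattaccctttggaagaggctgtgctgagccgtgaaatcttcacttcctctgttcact
Cxcr4, chr1:128592300-128592549: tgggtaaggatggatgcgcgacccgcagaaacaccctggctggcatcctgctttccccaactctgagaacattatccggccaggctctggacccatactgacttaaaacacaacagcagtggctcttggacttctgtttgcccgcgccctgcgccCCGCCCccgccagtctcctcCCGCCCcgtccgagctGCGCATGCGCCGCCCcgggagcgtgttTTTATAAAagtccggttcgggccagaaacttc
Ccr4, chr9:114496545-114496794: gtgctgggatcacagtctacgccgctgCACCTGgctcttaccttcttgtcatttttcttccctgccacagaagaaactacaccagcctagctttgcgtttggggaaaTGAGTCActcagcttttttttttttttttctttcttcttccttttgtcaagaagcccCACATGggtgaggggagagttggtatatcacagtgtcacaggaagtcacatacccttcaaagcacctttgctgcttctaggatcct
The Cxcr3 window held 1 E-box, a motif found in 66.2% of the 32851 RefSeq promoter windows of the same length. The Cxcr4 window held 3 GC boxes (in 32.7% of windows), 1 NRF-1 match (0.782%), which overlaps one of the GC boxes, and 2 overlapping TATA matches, 1 on each strand (12.4%). Its GC content was 61.2%, against 48.0% for Cxcr3, 46.4% for Ccr4 and a median of 52.4% over all windows. The Ccr4 window, which starts from a transcription start inside the gene's outer bounds, held 1 AP-1 match (4.46% of windows) and 2 E-boxes. No T-box site (3.33% of windows) or NBRE (1.34%) was in these 3 windows, and no match says only that these letters are absent there. Promoters of 7 of the 9 receptors were in the RefSeq table; those of Cxcr5 and Ccr7 were not analysed here.

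Ccr4 and Ccr8, receptors of Th2, skin-homing and regulatory T cells, both had lower values in Apoe-/- cells. Ccr4, which binds Ccl17 and Ccl22, was at 16.3 and 16.4 FPKM in WT replicates 1 and 2 and at 11.05 and 11.6 FPKM in Apoe-/- replicates 1 and 2, with a log2 difference of -0.49 ± 0.11 (SE; 95% interval -0.76 to -0.23; limma adjusted p = 0.0938). Ccr8, which binds Ccl1 and Ccl8, was at 24.3 and 24.8 FPKM in WT replicates 1 and 2 and at 17.5 and 19.6 FPKM in Apoe-/- replicates 1 and 2, with a log2 difference of -0.39 ± 0.11 (SE; 95% interval -0.67 to -0.11; limma adjusted p = 0.149). Both intervals lay below 0 while neither gene passed over all genes. Both lie on chromosome 9, Ccr4 at 114490316 to 114505476 and Ccr8 at 120092133 to 120094906.

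Cxcr6, the receptor of Cxcl16 on effector and tissue-resident T cells, was at 9.38 and 11.2 FPKM in WT replicates 1 and 2 and at 8.39 and 8.73 FPKM in Apoe-/- replicates 1 and 2. The groups were separated by less than the spread of the WT libraries, and the log2 difference was -0.23 ± 0.13 (SE; 95% interval -0.56 to 0.09; limma adjusted p = 0.381). It became -0.35 without WT replicate 1 and -0.12 without WT replicate 2. The gene, at 123806477 to 123811754 on chromosome 9, overlaps the bounds of Fyco1 on the opposite strand, with no exonic base in common.

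Ccr6, the receptor of Ccl20 and a mark of Th17 and some B cells, was at 7.76 and 6.58 FPKM in WT replicates 1 and 2 and at 9.59 and 8.45 FPKM in Apoe-/- replicates 1 and 2. Its log2 difference of 0.30 ± 0.13 (SE; 95% interval -0.04 to 0.63; limma adjusted p = 0.302) did not pass. All 8 B cell markers had lower values in the same Apoe-/- libraries, where 22.9% of all tested genes did. The part of B cells in the Ccr6 value was not tested. Ccr6 lies on chromosome 17 at 8236041 to 8258519.

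Ccr2, the receptor of Ccl2, which is best known for moving monocytes, was the lowest of the 9 at 1.46 and 2.15 FPKM in WT replicates 1 and 2 and 2.24 and 3.07 FPKM in Apoe-/- replicates 1 and 2. The highest WT and the lowest Apoe-/- library nearly touched, and the log2 difference was 0.38 ± 0.19 (SE; 95% interval -0.10 to 0.87; limma adjusted p = 0.341). It became 0.21 without WT replicate 1 and 0.56 without WT replicate 2. The 8 macrophage and monocyte markers summed to 82.7 and 80.7 FPKM in WT and to 109 and 115 FPKM in Apoe-/- libraries. Of them 5 had higher values in both Apoe-/- libraries, 1 (Adgre1) had lower values and 2 (Cd14 and Fcgr1) overlapped. Over all tested genes 27.5% lay above and 22.9% below. The 1 called higher was Vsig4 (mean 0.0738 FPKM in WT and 3.49 FPKM in Apoe-/- libraries), where 0.948% of all tested genes were called higher. The part of these cells in the Ccr2 value was not tested. Of the 50-base stretches of the Ccr2 transcripts, 1.91% also occurred in transcripts of other genes, so a small share of reads could be split between genes. Ccr2 lies on chromosome 9 at 124101918 to 124109140, and 5 of the 9 receptor genes are on that chromosome.

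Summed over the 9 receptors, FPKM was 648 and 613 in WT and 618 and 582 in Apoe-/- libraries, so the sums of the groups overlapped. The make-up of that sum differed. Cxcr4 accounted for 42.8% and 43.6% in WT and 30.5% and 32.4% in Apoe-/- libraries. Cxcr5 accounted for 27.1% and 26.5% in WT and 36.0% and 35.0% in Apoe-/- libraries. Cxcr3 went from 10.7% and 10.3% to 19.7% and 18.3%, and Ccr7 from 10.3% and 9.59% to 5.94% and 5.48%. The other 5 receptors each held under 5% of the sum in every library.

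**Figure D4:**
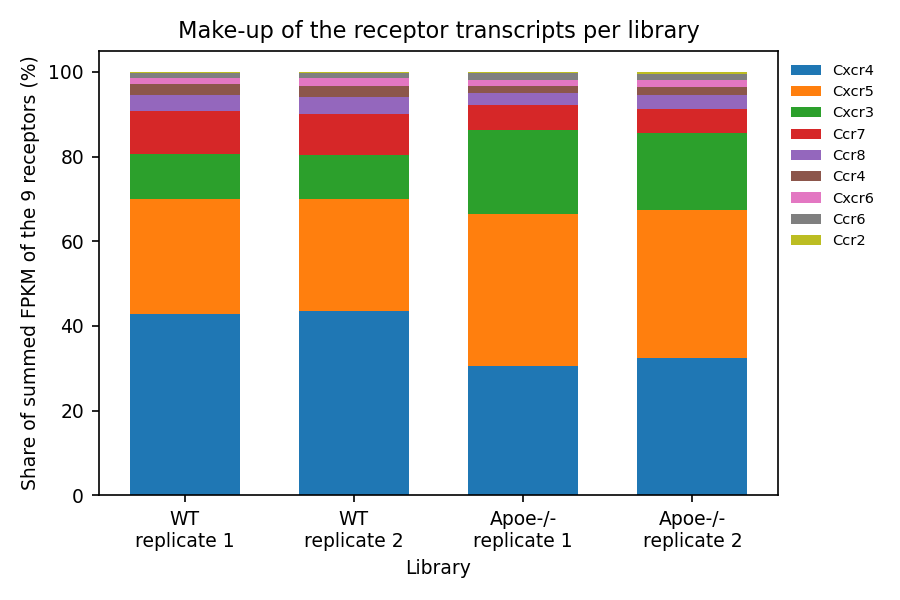
Share in percent of the summed FPKM of the 9 receptors held by each receptor, per library; bars are stacked to 100%. Cxcr5 and Cxcr3 take a larger and Cxcr4 and Ccr7 a smaller share in both Apoe-/- libraries.

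The genes whose pattern over the 4 libraries was most like that of Cxcr3 and of Cxcr5 were found by the root mean square distance of log2(FPKM + 1), centred on each gene's mean. For Cxcr3 they were Baiap3 (distance 0.0115; 29.7 and 51.6 FPKM in WT and Apoe-/- means), Nfic (0.0242; 5.05 and 9.20 FPKM) and Soat2 (0.0272; 1.42 and 3.27 FPKM). For Cxcr5 they were Gimap1 (0.00448; 142 and 179 FPKM), Cdc42se1 (0.00966; 95.9 and 120 FPKM) and Klhl17 (0.0107; 17.8 and 22.5 FPKM). With 4 libraries such a likeness is a description of these samples.

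Of 15 other chemokine receptors, 11 had a mean under 1 FPKM, from 0.113 to 0.938 FPKM, and 4 were tested, of which 0 passed by limma. At an unadjusted p under 0.05, 2 of the 4 were higher and 0 lower, where 11.6% of all tested genes were higher and 8.27% lower. Cx3cr1, the fractalkine receptor of cytotoxic lymphocytes and monocytes, was at 0.788 and 0.603 FPKM in WT replicates 1 and 2 and at 2.24 and 1.98 FPKM in Apoe-/- replicates 1 and 2. Its log2 difference was 0.88 ± 0.14 (SE; limma adjusted p = 0.0571). It passed in 4 settings, among them eBayes without a trend (0.0395) and without Apoe-/- replicate 1 (0.0208) or 2 (0.00669), and was at 0.161 without WT replicate 2. Mean FPKM of Ccr3, the eotaxin receptor, was 3.71 and 2.37 (limma adjusted p = 0.312) and that of the atypical receptor Ccrl2 was 16.8 and 18.5 (0.566), WT before Apoe-/-. The log2 difference of Ccr3, -0.51, became -0.83 and passed (0.0151) without Apoe-/- replicate 2, and was -0.19 without Apoe-/- replicate 1. The median difference of the 4 tested receptors was 0.34. The macrophage and the CD8 T and NK cell markers, whose sums given above were higher in both Apoe-/- libraries, belong to cells that also carry Cx3cr1, and their part was not tested.

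Among 16 ligands of the 9 receptors, 3 reached a mean of 1 FPKM and 1 was called lower, where 0.885% of all tested genes were. At an unadjusted p under 0.05 by limma, 1 of the 3 was higher and 1 lower, against 11.6% and 8.27% of all tested genes. Cxcl10, a ligand of Cxcr3, was at 130 and 129 FPKM in WT replicates 1 and 2 and at 45.4 and 45.9 FPKM in Apoe-/- replicates 1 and 2. It fell 2.84-fold (log2 difference -1.48 ± 0.09 SE; limma adjusted p = 0.00802) and stayed under the threshold in all 13 other settings, while its receptor rose. Cxcl13, the ligand of Cxcr5, was at 1.35 and 2.05 FPKM and Cxcl16, that of Cxcr6, at 0.783 and 1.57 FPKM, and neither passed (limma adjusted p = 0.400 and 0.170). The median of the 3 tested ligands was 0.37, opposite in sign to the called ligand, and it became -1.48 at a mean of 5 FPKM or more, where Cxcl10 alone was left, and -0.67 without Apoe-/- replicate 2. Ligands of stromal cells such as Cxcl12 and Ccl19 were under 0.3 FPKM in every library, and Ccl20 was listed at 0 in all 4.

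Genes that carry or end the receptors' signals were examined next. Of 18 transducers downstream of chemokine receptors, 0 passed by limma, and the median difference was 0.13. At an unadjusted p under 0.05, 1 of the 18 was higher and 0 lower, against 11.6% and 8.27% of all tested genes. The 2 with the largest differences were the phospholipase Plcb3 at 5.73 and 8.60 FPKM (adjusted p = 0.153) and the GTPase Rap1b, which activates integrins, at 252 and 193 FPKM (adjusted p = 0.378 by limma). Rap1b libraries of the groups overlapped, and its log2 difference of -0.40 became -0.67 and passed (0.0246) without Apoe-/- replicate 2 and was -0.12 without Apoe-/- replicate 1. Of 14 genes that desensitize receptors (receptor kinases, arrestins and RGS proteins), 13 were tested, with a median difference of 0.06. At an unadjusted p under 0.05, 2 of the 13 were higher and 3 lower, against the same 11.6% and 8.27%. Adrbk2, the receptor kinase now called Grk3, was the 1 gene called, where 0.948% of all tested genes were called higher. It rose from 2.22 ± 0.188 to 4.67 ± 0.00534 FPKM (SD, n = 2 each; log2 difference 0.82 ± 0.12 SE; limma adjusted p = 0.0493). Its call ended with no FPKM filter (adjusted p = 0.102), with quantile normalization (0.0557) and without WT replicate 1 (0.107) or 2 (0.109), over a range of 0.00672 to 0.109.

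Of 14 other homing and positioning genes, 0 passed by limma, with a median difference of 0.16. At an unadjusted p under 0.05, 4 of the 14 were higher and 1 lower, against the same 11.6% and 8.27%. Klf2, a factor known to oppose the Tfh program and to induce exit receptors, was at 152 and 249.2 FPKM (log2 difference 0.71 ± 0.14 SE, limma adjusted p = 0.0809). Cd69, which retains lymphocytes by removing S1pr1 from the surface, was at 206 and 118 FPKM (-0.80 ± 0.17 SE, adjusted p = 0.0962 by limma). Both passed without WT replicate 1 (0.0336 for Klf2, 0.0388 for Cd69) and without Apoe-/- replicate 2 (0.00524 and 0.000733), and their ranges over all settings were 0.00108 to 0.236 for Klf2 and 0.000733 to 0.249 for Cd69. Of 14 tested regulators of 15 linked to expression of these receptors, 1 was lower: Nfil3, a repressor induced by cytokines, fell from 76.9 ± 0.598 to 47.2 ± 2.31 FPKM (SD, n = 2 each; limma adjusted p = 0.0412). The median of these 14 regulators was -0.13. At an unadjusted p under 0.05, 2 of the 14 were higher and 5 lower, against 11.6% and 8.27% of all tested genes. Over all tested genes 0.885% were called lower. The call of Nfil3 ended in 5 of 13 settings (range 0.00179 to 0.152), among them without WT replicate 1 (0.0935) or 2 (0.152).

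**Figure D5:**
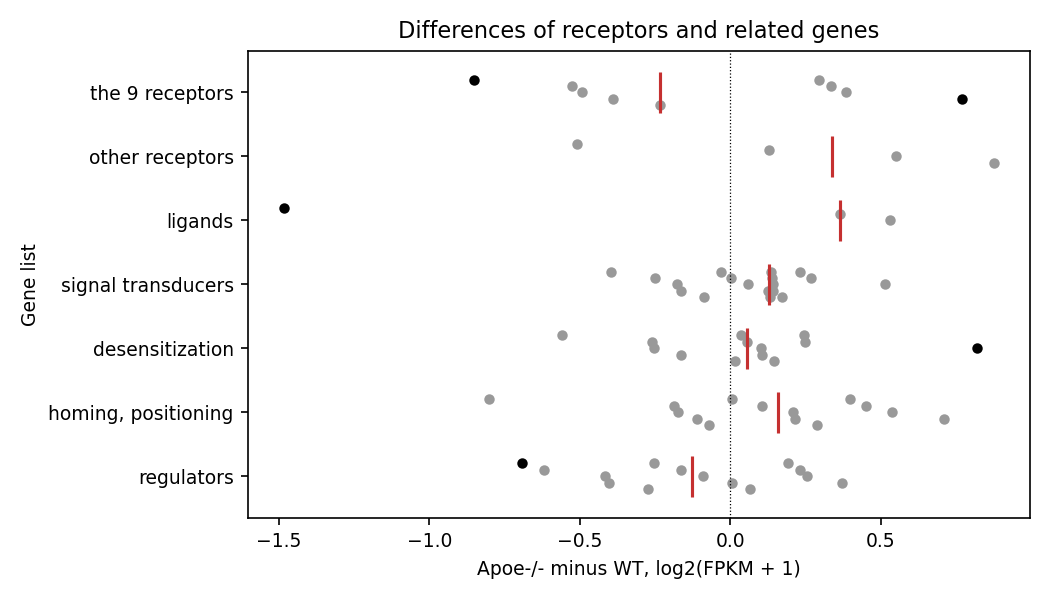
Difference of log2(FPKM + 1), Apoe-/- minus WT, for each tested gene of the 9 receptors and of 6 related lists; black points have an adjusted p under 0.05, grey points do not, and red lines are list medians. Ccr7, Cxcr3, Cxcl10, Adrbk2 and Nfil3 are the black points, and Cxcl10 is lowest at -1.48.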

How the data were processed

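RNA from 4 libraries labelled as Tfh cells (2 WT, 2 Apoe-/-) was deposited as one FPKM table by the authors. CASAVA 1.8.2, TopHat2 2.0.13, Cuffdiff 2.2.0 and build mm10 are named per the submitters' processing notes, without order or settings. The annotation, the strand setting, the scaling between libraries and any filter: not given in the sources used here. Rows were split on white space, because those of 2 genes, Bcl6 and Cxcr5, hold a space for a tab. FPKM is already scaled, so no count model was used. Values were analysed as log2(FPKM + 1), pseudocount 1, for 11187 genes with a mean of 1 FPKM or more. Groups were compared with limma 3.58.1 in R 4.3.3 (lmFit, eBayes with trend, two-sided, Benjamini-Hochberg over all tested genes, threshold 0.05). This scale understates changes of low genes; fold values are ratios of mean FPKM. The procedure was tested on simulated data. Groups came from sample titles. The receptors and gene lists were chosen with earlier results of these data known. Outside the receptors, genes were named by rule: other receptors with a mean of 1 FPKM or more (1 of the 4 is not reported here); in each other list up to 4 called genes with the largest difference, or the 2 largest where none was called; and the 3 genes most like Cxcr3 and Cxcr5. Alternatives were other pseudocounts, filters, scalings and variance models, the replicate number as a block, and leaving out each library, with the filter reapplied. Gene positions and promoters are RefSeq's on GRCm38.p6, the assembly also called mm10.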

Additional observations from a re-analysis of the deposited data

How the results depend on the processing

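All 116 receptor differences recomputed under 13 other settings kept their sign, but the calls of single receptors did not hold. With a pseudocount of 0.5, 2 receptors were lower (Cxcr4 -0.53, adjusted p = 0.0495). With no FPKM filter, 35 genes were higher and 41 lower and 0 receptors were called in either direction (Cxcr3 0.77, adjusted p = 0.0858; Ccr7 -0.85, 0.0865), and the medians were 0.13 for other receptors and 0.078 for ligands. At a mean of 5 FPKM or more, where Ccr2 was not tested, 51 genes were higher and 0 receptors called (Cxcr3 0.77, 0.0541; Ccr7 -0.85, 0.0540), with medians of 0.13 for other receptors and -1.48 for ligands, there 1 gene, Cxcl10. Rescaled to one FPKM total, 0 receptors were higher and 2 lower (Cxcr3 0.72, 0.0567; Cxcr4 -0.58, 0.0418), and the medians were 0.082 for transducers, 0.0098 for desensitization genes and 0.11 for homing genes. With median ratio scaling 0 receptors were called (Cxcr3 0.76, 0.0580; Ccr7 -0.86, 0.0529), and with eBayes without trend also 0 (Cxcr3 0.77, 0.0577; Ccr7 -0.85, 0.0512). Quantile normalization left 0 lower (Ccr7 -0.82, 0.0536) and a desensitization median of 0.091. The cause of these changes was not tested.

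The labels do not say that equal replicate numbers, which join 1 WT and 1 Apoe-/- library, share a day. Deviations of same-numbered libraries from their group means correlated at 0.214 over 11187 genes, with 2 pairs only. Among genes between 0.001 and 0.15 FPKM in both libraries of a pair, 19.0% (replicates 1) and 18.8% (replicates 2) sat at 1 common ratio. That share was 4.64% to 6.44% in pairs that differ in number or share a group, and what links the libraries was not tested. A block also leaves fewer residual degrees of freedom than the 2 of the main fit. With the replicate block 1908 genes were higher and 1776 lower, among them 3 and 4 receptors, and Cxcr4 (-0.53, adjusted p = 0.00148), Cxcr5 (0.33, 0.00376), Ccr4 (-0.49, 0.00705), Ccr6 (0.30, 0.0359) and Ccr8 (-0.39, 0.0109) passed. Among the other genes named, Cx3cr1 (0.00947), Ccr3 (0.0402), Rap1b (0.00659), Plcb3 (0.0100), Bcl6 (0.021), Klf2 (0.00108) and Cd69 (0.00117) also passed with the block.

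Leaving out 1 library, with the lone one assumed to vary like the other group, gave 59 to 347 genes higher, 71 to 343 lower, and 0 to 1 receptor in each direction. Cxcr3 ranged from 0.68 to 0.87 and Ccr7 from -0.95 to -0.75. Medians ranged from 0.17 to 0.40 for other receptors, -0.67 to 0.41 for ligands, 0.065 to 0.14 for transducers, 0.018 to 0.088 for desensitization, 0.070 to 0.15 for homing and -0.21 to -0.028 for regulators. The difference of Tbx21, an added gene, reversed to -0.014 without WT replicate 2 and -0.022 without Apoe-/- replicate 1. Without counts, depth cannot be set beside low values such as those of Ccr2.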
